A study of Homo sapiens with 6 samples.

Results

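9 genes that mark kidney development and tubule function were followed in HEK293T cells with and without the RNA demethylases ALKBH5 and FTO. They are defined by name: LRP2, CUBN, AMN and DAB2 of the tubule endocytic receptor complex, the transcription factor genes PAX2, PAX8 and LHX1, the cadherin gene CDH6 and the carbonic anhydrase gene CA2. The 9 genes were found by their GENCODE release 29 symbols among 58721 genes in the count table. The counts came from 6 libraries of rRNA-depleted cytoplasmic RNA that was not selected for poly(A). The wild type group had 3 libraries, and the double knockout group, in which ALKBH5 and FTO had been disrupted by CRISPR/Cas9, had 3 as well. Both groups were grown in DMEM with fetal calf serum, lysed in the presence of cycloheximide and given GFP and firefly luciferase spike-in RNAs. HEK293T is a transformed line derived from human embryonic kidney. The sources used here do not give the number of knockout clones, nor whether the wild type cells (in columns named HEK293G6, which the labels do not explain) were their parents. The effect of the knockout and a difference between lines or clones therefore cannot be told apart. The replicates were described as independent biological replicates.

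LRP2 encodes megalin and CUBN encodes cubilin, large receptors that take up filtered proteins and vitamin carriers in the proximal tubule. Cubilin has no transmembrane segment, and AMN encodes amnionless, which anchors it in the membrane and brings it to the cell surface. DAB2 encodes an adaptor that links megalin to clathrin-coated pits. PAX2 and PAX8 are paired-domain factors that act early in the kidney lineage together with LHX1, a LIM homeodomain factor of the intermediate mesoderm. CDH6 encodes a cadherin of nascent proximal tubule epithelium, and CA2 encodes the cytosolic carbonic anhydrase used in tubule acid-base transport. ALKBH5 and FTO remove methyl groups from N6-methyladenosine in RNA.

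The start regions of LRP2 and CUBN are shown because these partner genes moved in opposite directions. Each window runs from 250 bases before to 50 bases after a RefSeq start (GRCh38.p14), on the gene's own strand and 5′ to 3′. Capitals mark the letters CAAAGGTCA, a form of part of the motif bound by HNF4 factors.
LRP2 promoter, chr2:169362485-169362784, minus strand: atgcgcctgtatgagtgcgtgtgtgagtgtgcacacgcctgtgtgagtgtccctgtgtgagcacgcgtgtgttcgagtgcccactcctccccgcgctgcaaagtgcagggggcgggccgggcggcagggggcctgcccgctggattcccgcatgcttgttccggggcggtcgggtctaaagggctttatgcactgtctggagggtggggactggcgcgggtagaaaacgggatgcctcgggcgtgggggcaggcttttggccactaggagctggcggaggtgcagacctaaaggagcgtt
CUBN promoter, chr10:17129762-17130061, minus strand: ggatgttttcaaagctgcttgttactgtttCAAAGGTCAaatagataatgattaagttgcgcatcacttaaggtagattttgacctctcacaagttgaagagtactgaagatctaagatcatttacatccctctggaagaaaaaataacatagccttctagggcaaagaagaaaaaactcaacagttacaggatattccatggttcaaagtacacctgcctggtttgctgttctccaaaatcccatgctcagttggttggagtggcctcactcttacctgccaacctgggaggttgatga
The LRP2 window was 65.3% G and C with 23 CpG dinucleotides, and the CUBN window was 40.7% G and C with 1 CpG. Over 34943 RefSeq windows of the same length, the medians were 58.7% and 14 CpG. Both strands were searched for this motif and for short forms of the motifs of LIM homeodomain factors (TAATTA) and of PAX factors (GTCACGC). CAAAGGTCA was chosen after the sequences had been read. It lay in the CUBN window with its first base 220 bases before the start, and 0.406% of all windows held it. Because of that choice, the share does not measure how unusual the match is. The other motifs were found in neither window. The LIM form was held by 4.85% and the PAX form by 2.51% of all windows. Windows were also present for PAX2, PAX8, DAB2 and AMN, at 61.0% to 66.7% G and C, and none of these held a motif given here. A match is only a description of these letters, and binding of HNF4 factors was not measured. HNF4A transcripts were counted 2 times in wild type and 5 times in the double knockout, all libraries together. HNF4G, named after its values were seen, rose by 0.68 (adjusted p = 4.33e-05, edgeR), from 7.56 ± 0.889 to 12.1 ± 0.863 CPM (counts per 1000000 counts).

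Libraries held 5634648 to 7551825 gene counts. Levels are given as CPM, counts per 1000000 counts of the TMM-scaled library, and 3 counts, the upper limit for a count of 0, corresponded to 0.407 to 0.545 CPM. FTO had 96.5 to 112 CPM in wild type and 53.6 to 61.0 CPM in the double knockout. ALKBH5 had 235 to 256 CPM and 186 to 187 CPM. Both targeted transcripts were thus lower but still present in the libraries labelled double knockout, and a count per gene holds no information on whether the remaining RNA was edited. Of the markers that define kidney cell types, 5 of 19 proximal tubule transport genes and 1 of 15 distal nephron and collecting duct genes passed the low-count filter. The transporter genes SLC5A2 and SLC3A1 and the enzyme gene MIOX were listed at 0 in all 6 libraries. The summed level of the 15 distal genes was 1.63 to 4.07 CPM in wild type and 3.20 to 3.69 CPM in the double knockout.

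5 of the 9 genes had enough counts to be tested, and all of these 5 differed between the groups: LRP2, PAX2 and LHX1 rose and CUBN and CA2 fell in the double knockout. Across all 14180 tested genes, 57.1% changed at this threshold (adjusted p under 0.05, edgeR), 28.6% higher and 28.5% lower. Among the 4609 tested genes with a mean of 2 to 20 CPM, the range in which these 5 genes lay, 46.2% changed. The groups of libraries did not overlap in any of the 5 genes, against 60.6% of all tested genes. Changes past this threshold were thus common among all genes, and 5 of 5 is read against that background. The 9 genes were chosen with earlier results of these data known. Counts of these 5 genes beside all genes are therefore a description and not a test. LRP2, LHX1 and CA2 changed by at least 2-fold, as did 851 of all 14180 tested genes and 12.2% of those with 2 to 20 CPM. PAX2 rose by 1.99-fold, just under that size. In bulk RNA, a change in the number of cells that express a gene and a change of RNA per cell cannot be told apart.

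LRP2, the gene of megalin (ENSG00000081479.13), lies on chr2:169127109-169362685 on the minus strand (hg38, as all gene positions here). It had 42, 30 and 19 counts in wild type replicates 1 to 3 and 80, 89 and 86 counts in the double knockout replicates. These were 5.77, 4.07 and 3.45 CPM against 13.3, 13.7 and 13.8 CPM. The double knockout libraries lay close together, and the lowest of them was above the highest wild type library. The mean went from 4.43 ± 1.20 to 13.6 ± 0.238 CPM (SD, n = 3 each). On the log2 scale LRP2 rose by 1.59, about 3.0-fold (SE 0.17, 95% interval 1.25 to 1.92, adjusted p = 3.85e-18).

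CUBN, the gene of cubilin (ENSG00000107611.15), lies on chr10:16823966-17129817 on the minus strand. It had 55, 54 and 35 counts in wild type and 13, 31 and 28 counts in the double knockout. Scaled to depth, it had 7.56, 7.33 and 6.35 CPM against 2.16, 4.77 and 4.48 CPM. All double knockout libraries were below all wild type libraries, and double knockout replicate 1 was the lowest. The mean went from 7.08 ± 0.641 to 3.81 ± 1.43 CPM (SD, n = 3 each). On the log2 scale CUBN fell by 0.89, or 1.86-fold (SE 0.21, 95% interval -1.31 to -0.48, adjusted p = 9.25e-05). Without double knockout replicate 1 it fell by 0.63 (adjusted p = 0.0128).

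The pair was set side by side after the opposite directions of its members had been seen, so the ratio is a description. An exact permutation test of the log2 ratio gave p = 0.1. With 3 libraries in each group that test cannot give a lower value, and no conclusion is drawn from it. Per kilobase of exon, LRP2 stood at 0.623, 0.453 and 0.443 of the CUBN level in wild type replicates 1 to 3. In the double knockout replicates it stood at 5.02, 2.34 and 2.51 times the CUBN level. CUBN was the more abundant transcript in each wild type library, and LRP2 in each double knockout library. The log2 ratio of LRP2 to CUBN averaged -0.999 ± 0.275 in wild type and 1.63 ± 0.61 in the double knockout (SD, n = 3 each).

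**Figure D1:**
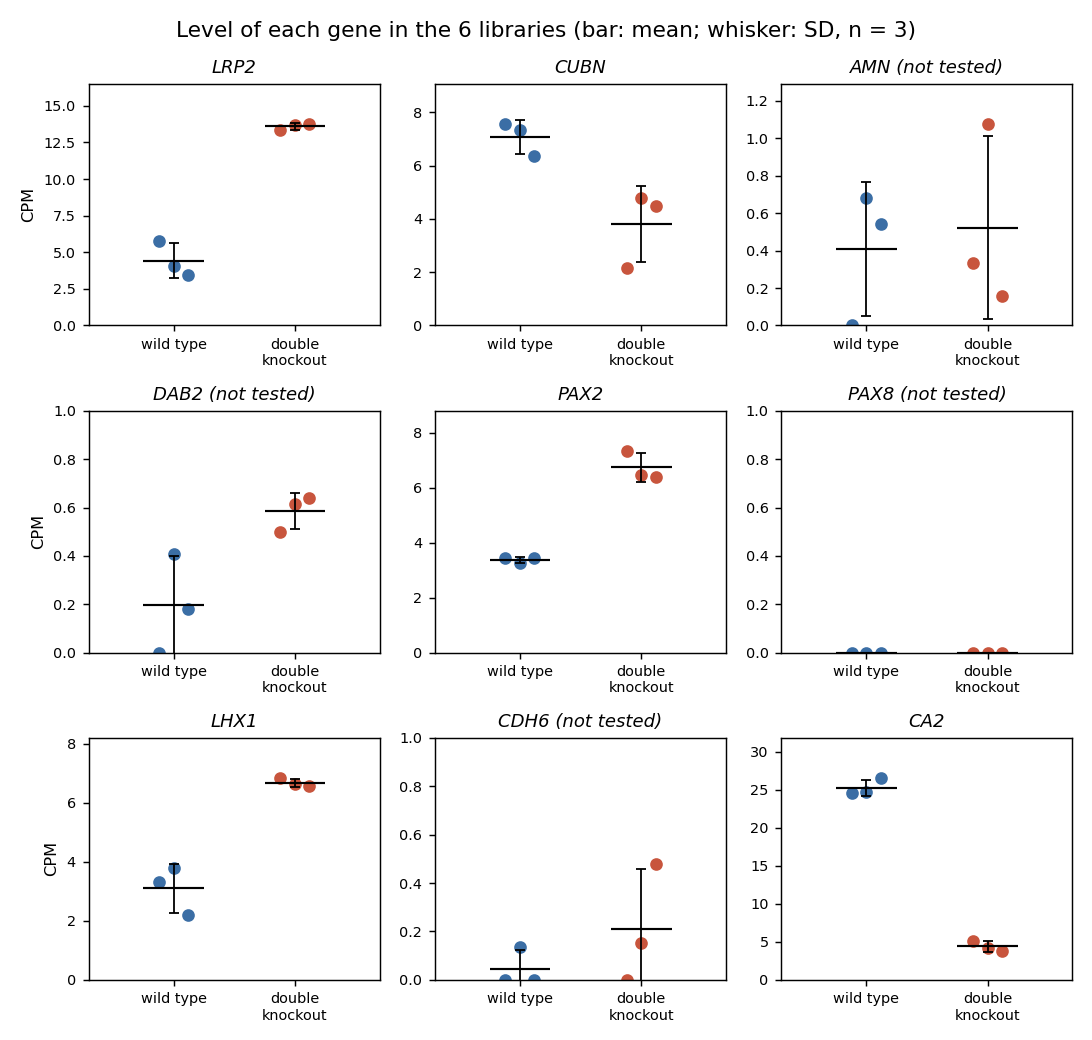
Level of each of the 9 genes in CPM (vertical axes, each from 0) in the 3 wild type (blue) and 3 double knockout (red) libraries, with replicates 1 to 3 from left to right in each group, the mean as a bar and the SD as a whisker. LRP2, PAX2 and LHX1 sit higher and CUBN and CA2 lower in the double knockout without overlap, while AMN, DAB2, CDH6 and PAX8 stay near or at 0.

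The other members of the receptor complex were close to the detection limit and were not tested. AMN (ENSG00000166126.10, chr14:102922656-102933596, plus strand), which cubilin needs to reach the surface, had 0, 5 and 3 counts in wild type and 2, 7 and 1 counts in the double knockout, and the groups overlapped. Its ratio of double knockout to wild type was 1.34, with a 95% counting interval of 0.477 to 3.92. AMN also shares 16.4% of its exon bases with CDC42BPB on the opposite strand, which had 3141 counts in wild type and 2206 in the double knockout. Since the sources do not say whether counting used strand, the few AMN counts are uncertain. DAB2 (ENSG00000153071.14, chr5:39371675-39462300, minus strand), the adaptor of megalin, had 0, 3 and 1 counts in wild type and 3, 4 and 4 counts in the double knockout. Its ratio was 2.95, with a counting interval of 0.875 to 12.7, so that a difference was not detectable at this depth, although each double knockout library had at least as many counts as each wild type library. Without the low-count filter, neither passed (adjusted p = 0.751 for AMN and 0.257 for DAB2, edgeR).

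Transcripts of the wider endocytic machinery were counted in both groups. All 33 genes of a list of megalin and cubilin partners, clathrin adaptors and endosomal proteins were tested, and 6 rose, 13 fell and 14 did not pass, a share of 57.6% changed against 57.1% of all tested genes. Their median log2 fold change was -0.05, against 0.01 over all tested genes. TFRC, the transferrin receptor, went from 272 ± 5.51 to 160.5 ± 3.97 CPM (SD, n = 3 each) and fell by 0.76 (SE 0.04, adjusted p = 3.80e-66). LRPAP1, the chaperone that escorts megalin and its relatives through the secretory pathway, went from 164 ± 3.17 to 259 ± 2.95 CPM and rose by 0.66 (SE 0.04, adjusted p = 3.10e-52). LRPAP1 lies among genes that moved with it: 70 of the 82 tested genes within 5 Mb rose and 0 fell, with a median of 0.48. The surroundings of TFRC had a median of 0.02.

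Of 12 tested relatives in the LDL receptor family, 2 rose, 5 fell and 5 did not pass, and their median was 0.09. The share changed was 58.3%, close to the 57.1% of all tested genes. LRP6, a WNT coreceptor, fell by 0.44 (adjusted p = 4.85e-16). The highest value among these relatives was 0.44, so LRP2, at 1.59, lay above each of them; whether it differs from them was not tested. LRP11 was listed at 0 in all 6 libraries and was not tested. Of 13 listed ligands and vitamin carriers found among the counted genes, 4 were tested. Of these 4, 75% changed, against 57.1% of all tested genes. CLU, a secreted chaperone taken up by megalin, rose by 1.60 (adjusted p = 3.22e-131), from 61.8 ± 4.83 to 189 ± 8.09 CPM. The lipase gene LPL rose by 1.90 (adjusted p = 3.79e-07), from 1.03 ± 0.699 to 3.99 ± 1.80 CPM. Leaving out single libraries gave 1.47 to 2.62 for LPL. The value of 2.62 was without wild type replicate 1, which had 13 counts against 3 and 5 in the others. CD320, the receptor of the vitamin B12 carrier, rose by 0.16 (adjusted p = 0.00706), a call lost with spike-in scaling (adjusted p = 0.696), with DESeq2 (0.0658), without wild type replicate 3 (0.0533) and without double knockout replicate 3 (0.0546). The metallothionein gene MT2A did not pass (0.05, adjusted p = 0.824), and RBP4, APOB and GC were listed at 0.

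PAX2 (ENSG00000075891.21, chr10:100735603-100829941, plus strand), the paired-domain factor of the early kidney lineage, had 25, 24 and 19 counts in wild type and 44, 42 and 40 counts in the double knockout. Its levels were 3.44, 3.26 and 3.45 CPM against 7.33, 6.46 and 6.40 CPM. The wild type libraries were nearly equal, and all 3 double knockout libraries lay above them. The mean was 3.38 ± 0.107 CPM in wild type and 6.73 ± 0.517 CPM in the double knockout (SD, n = 3 each). On the log2 scale PAX2 rose by 0.99 (SE 0.22, 95% interval 0.56 to 1.42, adjusted p = 2.89e-05).

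LHX1 (ENSG00000273706.4), a LIM homeodomain gene, lies on chr17:36936785-36944612 on the plus strand. It had 24, 28 and 12 counts in wild type and 41, 43 and 41 counts in the double knockout, or 3.30, 3.80 and 2.18 CPM against 6.83, 6.62 and 6.56 CPM. Wild type replicate 3 was the lowest, and the groups did not overlap. The mean was 3.09 ± 0.831 CPM in wild type and 6.67 ± 0.140 CPM in the double knockout (SD, n = 3 each). LHX1 rose by 1.07 on the log2 scale, or 2.09-fold (SE 0.22, 95% interval 0.63 to 1.51, adjusted p = 9.27e-06). LHX1-DT, a noncoding transcript that starts beside it, did not pass (0.10, adjusted p = 0.755), at 3.32 and 3.62 CPM. The antisense gene AC243773.1, which overlaps 7.52% of the LHX1 exon bases, was listed at 0 in all 6 libraries.

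PAX8 (ENSG00000125618.16, chr2:113215997-113278950, minus strand), the close relative of PAX2, had a count of 0 in all 6 libraries. For reads that counting could assign to the gene, this allows at most 0.407 to 0.545 CPM per library. PAX8-AS1, which runs through the locus on the other strand, had 9 counts in wild type and 9 in the double knockout, all libraries together. It overlaps 9.26% of the PAX8 exon bases, and the sources do not say whether counting used strand. 6 of the 7 other PAX genes were tested. PAX5 rose by 1.31 (adjusted p = 2.24e-04), from 1.32 ± 0.387 to 3.37 ± 0.545 CPM, and PAX1 rose by 1.28 (adjusted p = 0.00479), from 0.849 ± 0.0510 to 2.07 ± 0.399 CPM. The other 4 did not pass, and the median of the 6 was 0.19, with 33.3% changed against 57.1% of all tested genes. Among the 8 tested LIM homeobox genes other than LHX1, 4 rose, 2 fell and 2 did not pass, with a median of 0.44. The share changed was 75% in this short list, against 57.1% of all tested genes. LHX2 rose by 1.61 (adjusted p = 2.34e-19), from 4.67 ± 0.171 to 14.3 ± 1.90 CPM, and LHX4 rose by 1.16 (adjusted p = 7.42e-10), from 4.94 ± 0.411 to 11.0 ± 1.05 CPM. LHX2 lies in a region where 76 of 99 tested neighbours rose (median 0.35), and the neighbours of LHX4 had a median of -0.04. Of 14 tested cofactors of PAX and LIM proteins, 2 rose and 7 fell (median -0.16), or 64.3% against 57.1% of all tested genes. The coactivator gene WWTR1 fell by 0.76 (adjusted p = 4.10e-17) in a region with a median of -0.71, and WBP2 rose by 0.53 (adjusted p = 6.14e-17).

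Of 42 other regulators of kidney development, 23 were tested, of which 8 rose, 5 fell and 10 did not pass (median 0.09). The share that changed, 56.5%, was close to the 57.1% of all tested genes. MECOM, a zinc finger factor of the distal nephron, fell by 0.89 (adjusted p = 3.28e-27), in a region where 19 of 25 tested neighbours fell and 0 rose (median -0.67). FGF9, a growth factor of nephron progenitors, rose by 1.63 (adjusted p = 8.53e-22), from 5.12 ± 0.860 to 16.0 ± 1.51 CPM, with a median of -0.12 among its neighbours. SIX2, EYA1, SALL1 and GATA3, regulators of nephron progenitors and of the ureteric bud, did not pass and were named after their values were seen.

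Genes of GDNF signalling through RET, which drives branching of the ureteric bud, were named after their values were seen. They come from the same list of regulators of kidney development, where 56.5% of the tested genes changed, against 57.1% of all tested genes. Their directions are a description, and the activity of the pathway was not tested. GFRA1, the coreceptor, had 13, 10 and 14 counts in wild type and 51, 48 and 45 counts in the double knockout, and rose by 2.05 (adjusted p = 6.78e-15). RET had 15, 29 and 12 counts against 34, 33 and 25 counts and rose by 0.82 (adjusted p = 0.00302), a call lost without wild type replicate 1 (0.62, adjusted p = 0.0515). ETV5, a transcription factor gene induced by this pathway, had 4, 10 and 4 counts against 40, 33 and 57 counts and rose by 2.93 (adjusted p = 2.08e-19). SPRY1, an inhibitor of the pathway, fell by 1.02 (adjusted p = 1.50e-13), in a region where 34 of 37 tested neighbours fell (median -0.67). GDNF itself was not tested, with 3, 2 and 2 counts in wild type and 12, 9 and 12 counts in the double knockout.

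**Figure D2:**
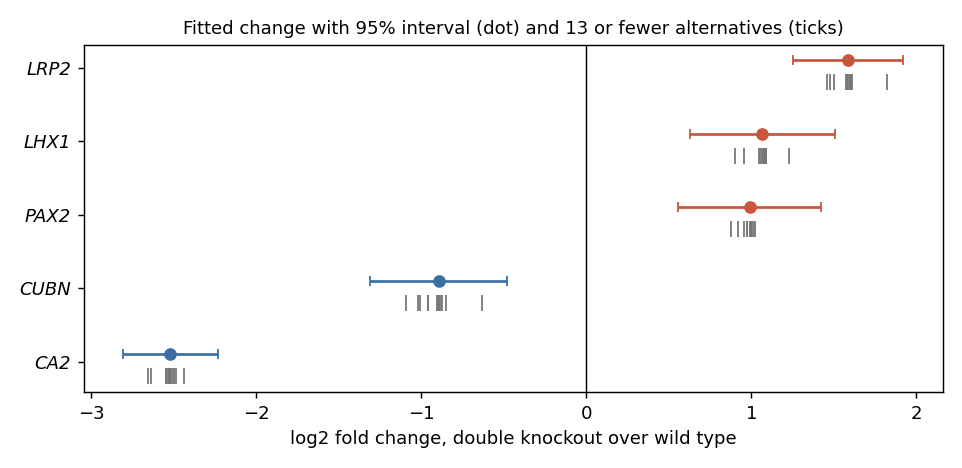
Log2 fold change of the 5 tested genes, double knockout over wild type (horizontal axis), as a dot with its 95% interval; the grey ticks are the same value under the alternative analyses. LRP2, LHX1 and PAX2 stay above 0 and CUBN and CA2 below 0 in each of them, from 1.46 to 1.82 for LRP2 and from -2.65 to -2.44 for CA2.

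CA2 (ENSG00000104267.9, chr8:85463852-85481493, plus strand), the cytosolic carbonic anhydrase, showed the largest change of the 5 tested genes. It had 179, 182 and 146 counts in wild type and 31, 27 and 24 counts in the double knockout, or 24.6, 24.7 and 26.5 CPM against 5.16, 4.16 and 3.84 CPM. The groups were far apart in relation to the spread within them. The mean went from 25.3 ± 1.07 to 4.39 ± 0.690 CPM (SD, n = 3 each). On the log2 scale CA2 fell by 2.52, or 5.74-fold (SE 0.15, 95% interval -2.81 to -2.23, adjusted p = 3.85e-52).

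Of 14 other carbonic anhydrase genes, 5 were tested, and 1 rose, 1 fell and 3 did not pass (median 0.08). The share changed was 40%, against 57.1% of all tested genes. CA8, whose protein lacks the enzyme activity, rose by 1.65 (adjusted p = 5.49e-51), from 13.4 ± 0.769 to 42.4 ± 1.87 CPM. CA5B, a mitochondrial enzyme gene, fell by 0.29 (adjusted p = 0.0236), a call lost with DESeq2 (adjusted p = 0.136), without wild type replicate 1 (0.144) and without double knockout replicates 1 (0.0553) or 2 (0.103). CA13 (0.24, adjusted p = 0.102), CA12 (0.08, adjusted p = 0.478) and CA11 (0.02, adjusted p = 0.910) did not pass, and CA12 and CA11 had small negative values with spike-in scaling. CA13, CA1 and CA3 lie beside CA2 on chromosome 8. CA3 had 9, 4 and 7 counts in wild type and 6, 6 and 13 counts in the double knockout, and CA1 had 1 count in all. Of 13 tested acid-base transporters and their scaffolds, 4 rose and 4 fell (median -0.03), or 61.5% against 57.1% of all tested genes. The bicarbonate cotransporter gene SLC4A7 fell by 0.52 (adjusted p = 4.65e-15) in a region with a median of -0.45, and the anion exchanger gene SLC4A2 rose by 0.34 (adjusted p = 3.51e-14) in a region with a median of 0.21.

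CDH6 (ENSG00000113361.12, chr5:31193750-31329146, plus strand), the tubule cadherin, had 0, 1 and 0 counts in wild type and 0, 1 and 3 counts in the double knockout and was not tested. With so few counts the ratio of 4.30 has a counting interval of 0.425 to 212. Of 5 tested type II cadherin genes, 40% changed, against 57.1% of all tested genes. CDH18 rose by 0.87 (adjusted p = 0.00588) and CDH10 fell by 1.01 (adjusted p = 0.00604). Both calls were lost with DESeq2 (adjusted p = 0.0812 and 0.0570). The CDH18 call was also lost without wild type replicate 1 (0.120), wild type replicate 2 (0.0522) or double knockout replicate 3 (0.0638), and the value was 1.34 without wild type replicate 3. Also lost was the CDH10 call without double knockout replicate 2 (0.0503). CDH22 (-0.63, adjusted p = 0.127), CDH12 (-0.14, adjusted p = 0.204) and CDH24 (0.09, adjusted p = 0.420) did not pass, although CDH22 passed without double knockout replicate 2 (-1.18, adjusted p = 0.0232) and CDH12 without double knockout replicate 3 (-0.25, adjusted p = 0.0403). Of 8 cytoplasmic partners of cadherins, 6 were tested, and 3 rose and 3 fell (median -0.02). All 6 thus changed, against 57.1% of all tested genes. Not tested were CTNNA2, with 12 counts in wild type and 26 in the double knockout, and CTNND2, with 8 and 17. CTNNB1, beta-catenin, fell by 0.49 (adjusted p = 2.07e-36), in a region with a median of -0.53, and the junction scaffold gene AFDN fell by 0.62 (adjusted p = 5.23e-29), in a region with a median of -0.37.

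**Figure D3:**
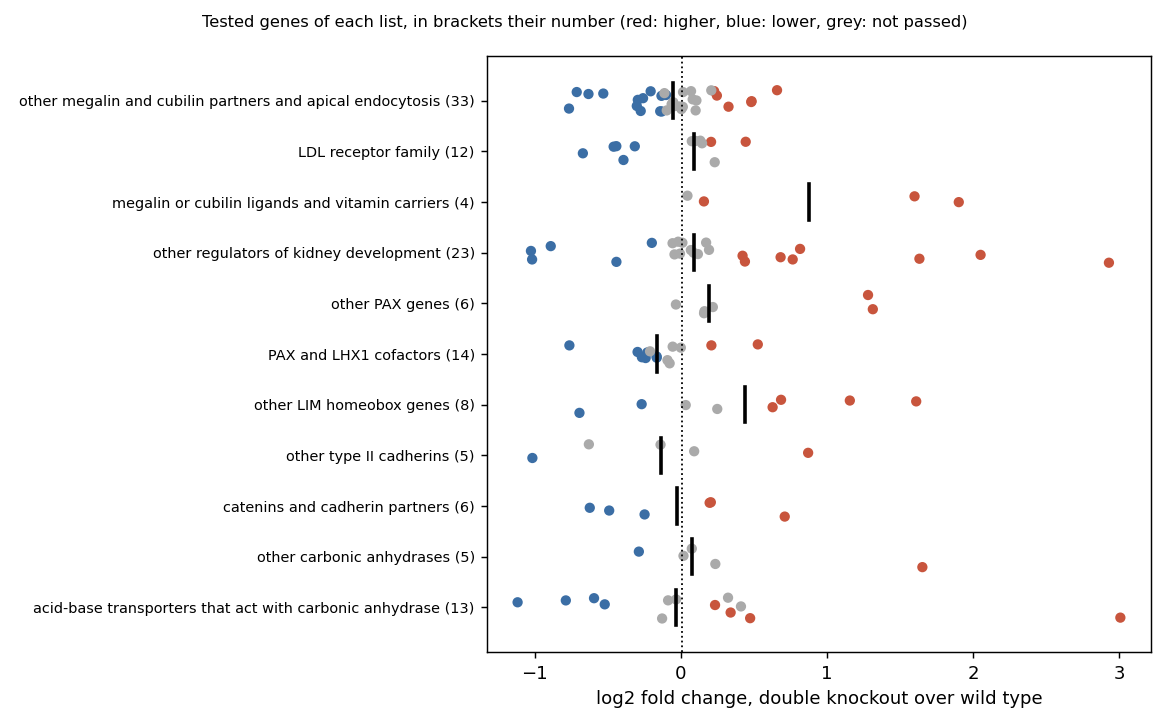
Log2 fold change (horizontal axis) of each tested gene in the 11 lists of related genes (rows), with the list median as a black bar and the median of all tested genes as a dotted line. Each list but the ligands holds genes on both sides, and the list medians run from -0.16 for the PAX and LHX1 cofactors to 0.88 for the 4 ligands and carriers.

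The order of the levels was read per kilobase of exon (RPKM, CPM divided by the exon length of the gene model). In wild type, CA2 stood first at 11.9 ± 0.502 RPKM (SD, n = 3). LHX1 (0.634 ± 0.170), PAX2 (0.542 ± 0.0171) and CUBN (0.534 ± 0.0483) followed, and neighbours among these 3 overlapped. LRP2 (0.273 ± 0.0740 RPKM) came next, below each CUBN library, and AMN (0.0878), DAB2 (0.0254), CDH6 (0.00366) and PAX8 (0) closed the order. In the double knockout, CA2 was still first, at 2.07 ± 0.325 RPKM. LHX1 (1.37 ± 0.0287), PAX2 (1.08 ± 0.0828) and LRP2 (0.836 ± 0.0146) came after it, each without overlap with the next, and CUBN followed at 0.287 ± 0.108 RPKM. CUBN overlapped AMN there (0.113 ± 0.105 RPKM), and DAB2 (0.0758 ± 0.00973), CDH6 (0.0171) and PAX8 (0) came last.

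Most tested neighbours of CUBN fell as well. Of 47 other tested genes that start within 5 Mb of CUBN on chromosome 10, 34 fell and 3 rose, with a median of -0.44. The nearest tested genes on either side, RSU1 (-0.28) and TRDMT1 (-0.70), fell, as did the next, PTER (-0.58) and VIM-AS1 (-0.62). CUBN was 0.46 below the median of its surroundings, and 2 of the 47 fell by more, among them ITGA8, an integrin gene of kidney development (-1.02). Within 5 Mb of CA2, 6 of 25 genes rose and 6 fell (median -0.04), and CA2 was 2.48 below that median. There, AC015522.1, a noncoding RNA, was the single gene that fell by more (-4.18). LRP2 was 1.65 above the median of 44 neighbours (-0.06), PAX2 0.91 above that of 103 (0.08) and LHX1 1.02 above that of 98 (0.04). The genes next to LRP2 did not rise: CERS6 (-0.11) and FASTKD1 (-0.40) fell, and SPC25 did not pass (-0.02).

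**Figure D4:**
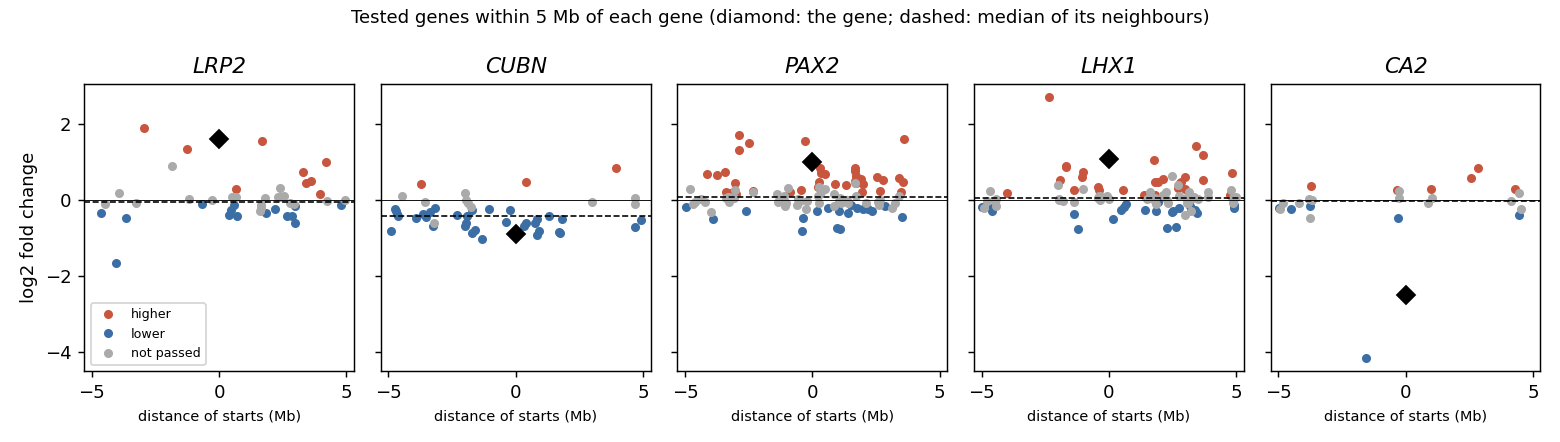
Log2 fold change (vertical axis) of tested genes against the distance of their start from that of LRP2, CUBN, PAX2, LHX1 or CA2 in Mb (horizontal axis). The diamond is the named gene, and the dashed line is the median of its neighbours, which lies at -0.44 around CUBN and between -0.06 and 0.08 around the other 4.

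Genes were also ranked by the likeness of their profile over the 6 libraries, as the root mean square difference of centred log2 CPM. Closest to LRP2 were DMRTA1 (0.0795), KCNJ4 (0.0994) and SLC35F3 (0.108), and among the closest to CUBN were TGFB2 (0.144) and AC073655.2 (0.177). The ranking includes the group difference, so similar log2 fold changes follow from it. They were 1.57 to 1.88 for the 3 genes near LRP2, and -1.02 and -0.99 for TGFB2 and AC073655.2.

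The letters GGACT, the most common form of the sequence at which m6A is placed, were counted in the longest coding transcript of each gene. LRP2 had 25 in 15808 bases (1.58 per kilobase) and CUBN 8 in 11933 bases (0.670 per kilobase). LHX1 had 1.46, PAX2 1.45 and CA2 1.16 per kilobase. Over 12122 tested coding genes, the median was 0.926 per kilobase, at 0.994 in those that rose and 0.845 in those that fell. The quartiles overlapped, from 0.609 to 1.47 in those that rose and from 0.550 to 1.24 in those that fell. The 3 genes that rose lay at percentiles 78.0 to 82.4, CA2 at 64.9 and CUBN at 31.8. AMN, DAB2, CDH6 and PAX8, whose change was not tested, lay at 93.3, 72.6, 58.9 and 35.7. A link between these letters and the changes was not tested. These are descriptions of the sequence, since m6A itself was not measured here.

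Markers of other cell types were measured in the same comparison, in which 57.1% of all tested genes changed and 28.6% rose. Of 14 neuronal markers, 8 were tested, of which 7 rose and 0 fell; their summed level was 324 to 355 CPM in wild type and 600 to 615 CPM in the double knockout. With spike-in scaling 3 of them rose and 1 fell, and with DESeq2 4 rose. In the main fit, the neuronal ubiquitin hydrolase gene UCHL1 had a log2 fold change of 1.12, from 164 to 358 CPM. In its region 23 of 31 tested neighbours rose (median 0.43). ENO2, an enolase gene, had 2.03 and NEFM, a neurofilament gene, had 0.82, in regions with medians of 0.04 and 0.05. RBFOX3 had the opposite sign and did not pass (-0.54, adjusted p = 0.0501, edgeR), although its groups did not overlap. ELAVL3, ELAVL4, STMN2, TUBB3 and NEFH had at most 3 counts in any library and were not tested. Of 10 epithelial markers, 3 of 5 tested rose, namely KRT18 (0.69), KRT8 (0.44) and EPCAM (1.71), and their summed level was 124 to 142 and 196 to 204 CPM. Of the proximal tubule transport genes, ASS1 rose by 0.71, in a region with a median of 0.43, and SLC13A3 by 0.26, a call lost with spike-in scaling (adjusted p = 0.344), with DESeq2 (0.0767) and without wild type replicate 1 (0.0884). That list summed to 86.9 to 92.9 CPM in wild type and 117 to 123 CPM in the double knockout. Of 8 podocyte markers, PODXL, a sialomucin, rose by 1.36 and 3 others did not pass, with sums of 26.1 to 28.0 and 47.3 to 49.6 CPM. Each sum depends most on its abundant genes, such as UCHL1 among the neuronal markers. From wild type to double knockout, mean levels went from 72.4 to 116.6 CPM for KRT18, from 40.2 to 66.1 CPM for ASS1 and from 12.7 to 32.6 CPM for PODXL. All 3 tested fibroblast markers fell, namely LUM, COL3A1 (-2.41) and COL1A1 (-0.34), from sums of 17.4 to 20.6 to sums of 10.8 to 13.3 CPM; the call of COL1A1 was lost in 7 alternatives, with adjusted p from 0.0508 to 0.170, among them each fit without wild type replicates 1 or 3 or double knockout replicates 1 or 2. LUM had 24, 17 and 11 counts in wild type and 0, 3 and 0 counts in the double knockout. Its fitted value of -3.86 rests on the 3 counts of double knockout replicate 2 and was -7.07 without that library, where it depends on the prior count. The 13 adrenal and chromaffin markers had no tested member, with sums of 2.72 to 4.81 and 3.50 to 5.12 CPM, and CYP21A2 and TH were among those at 0. The 2 tested haematopoietic markers did not pass, with sums of 4.21 to 4.95 and 4.50 to 5.76 CPM, and HBB and CD3E were among those at 0. COL1A2 among the fibroblast and KRT7 among the epithelial markers were at 0 as well. The part of these cell type markers in the changes of LRP2, CUBN, PAX2, LHX1 and CA2 was not tested.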

How the data were processed

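Raw read counts per gene from 6 libraries were used as deposited. Per the submitters' processing notes, reads were trimmed with cutadapt 2.10, aligned with STAR 2.7.6a to hg38 and counted with featureCounts. Its version, its strand setting and its treatment of reads with several alignments are not given in the sources used here. All 58721 gene identifiers matched GENCODE release 29, which gave symbols, positions and exon lengths. Wild type columns were taken as those that name no knockout.

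Genes passing filterByExpr (minimum count 10, minimum total 15) were fitted in R 4.3.3 with edgeR 4.0.16 (TMM, glmQLFit robust, glmQLFTest, two-sided, Benjamini-Hochberg over 14180 genes, threshold 0.05). Standard errors came from the F statistic. Counting intervals are exact 95% intervals and, like the limit of 3 counts, cover counting error only. Profile likeness used log2 CPM with a prior count of 2.

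The 9 genes, the lists and the tests were chosen with earlier results of these data known. Named genes were all 9, the 2 with the smallest p of each related list (all where 5 or fewer were tested) and up to 3 passing markers of each marker list; other genes were named after their values were seen, and a few genes that the rule or a list holds, and a further motif that was searched, are not reported here. The labels do not say that equal replicate numbers pair libraries, and the main fit used no pairing. Deviations from the group mean had correlations of 0.0106, 0.0166 and 0.00850 between libraries of equal number. These were not set against unequal numbers, so they cannot decide whether libraries were paired. Alternatives were RLE factors, spike-in scaling (GFP and FLuc), DESeq2 1.42.0, limma voom 3.58.1, other filters, a replicate block and leaving out each library.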

Additional observations from a re-analysis of the deposited data

How the results depend on the processing

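The 5 calls of LRP2, PAX2, LHX1, CUBN and CA2 kept their direction and passed in each alternative that tested them; with a mean CPM of at least 5, LHX1 was not tested. Leaving out single libraries gave 1.46 to 1.82 for LRP2, 0.92 to 1.02 for PAX2, 0.90 to 1.23 for LHX1, -1.09 to -0.63 for CUBN and -2.65 to -2.44 for CA2. The highest adjusted p was 0.0128, for CUBN without double knockout replicate 1. With the replicate number as a block, LRP2 had 1.59, PAX2 0.99, LHX1 1.08, CUBN -0.90 and CA2 -2.52, and 8109 genes changed in place of 8093. Spike-in scaling moved the median of all tested genes from 0.01 to -0.10, and 2133 genes rose and 4236 fell in place of 4055 and 4038. With it the values turned to -0.0950 for CA11, -0.0317 for CA12, -0.0123 for CDH24 and -0.0639 for MT2A, none of which passed in either scaling; the cause was not tested. Without single libraries CA11 ranged from -0.0237 to 0.0706 and MT2A from -0.0469 to 0.0893. DESeq2 called 6165 genes. AMN, DAB2, CDH6 and PAX8 are limited by depth, at 11 or fewer counts over the 3 libraries of a group.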
